A study of Rattus norvegicus with 30 samples.

Results

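The 73 genes described here encode proteins of the mitochondrial ribosome. They are the genes measured on a rat whole-genome expression array whose symbol begins with Mrpl (46 genes, named for the large subunit) or Mrps (27 genes, named for the small subunit). Probe sets annotated to exactly 1 gene were used, and of the 97 such probe sets the one with the highest mean over all 30 arrays stood for each gene. They are 73 of 14217 genes with such a probe set, and all 73 were among the 10222 genes bright enough to be tested. Levels were taken from RNA of frozen primary hepatocytes of male Sprague Dawley rats, plated on collagen under a Matrigel overlay and dosed on day 3 of culture. Methapyrilene, an antihistamine withdrawn because it caused liver tumours in rats, was given as its hydrochloride at 3 uM or 100 uM. Control wells received DMSO, labelled as 1%; the protocol gives that share for the dosing solutions, so the share in the medium cannot be told, and the dosed wells received the same vehicle. Cells were harvested after 24 h or 48 h, which gave 6 groups of 5 wells with 1 array each. The wells were separate cultures, but the labels name no animals, so p-values measure the spread between wells, and no label pairs a well of one group with a well of another.

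The mitochondrial ribosome translates the few messenger RNAs that are transcribed from mitochondrial DNA. Their products are core subunits of the oxidative phosphorylation complexes. All proteins of this ribosome are encoded in the nucleus, made in the cytosol and imported. The small subunit reads the messenger RNA, the large subunit joins the amino acids, and the finished chain leaves through an exit tunnel toward the inner membrane. Some of the proteins descend from bacterial ribosomal proteins and others were added in mitochondria.

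The values are MAS5 signals, a summary intensity per probe set on a linear scale. Every array had been scaled to about the same trimmed mean, while array medians ran from 362 to 471 signal units. The 73 genes were above the array median on all 30 arrays, and their mean signals ran from 951 to 31548. Replicates 1, 2 and 3 of the group given 3 uM for 24 h stood apart, with a 3' to 5' signal ratio of the beta-actin control of 3.93, 5.10 and 5.30, against 2.34 to 3.43 on the other 27 arrays. All 7 hepatocyte markers checked (such as Alb and Apoa1) were above the median on all arrays, but their levels were not all alike between groups. From DMSO to 100 uM, mean Cyp2e1 went from 2399 to 1763 at 24 h and from 1264 to 693 at 48 h. Fgb went from 76747 to 60186 and from 65405 to 57243, and Hnf4a from 8693 to 6743 and from 6896 to 6742. Alb went from 85971 to 90050 and from 86647 to 78133, and Apoa1 from 66033 to 66432 and from 62465 to 60093. Summed signal of the 6 Kupffer cell and leukocyte markers was 12522 to 14825 on the DMSO arrays at 24 h and 9258 to 11075 at 100 uM, and at 48 h it was 11192 to 13886 and 7684 to 9786. Most of that sum is Cd14, whose mean was 11823 in DMSO and 7365 at 100 uM at 24 h, and 10543 and 5130 at 48 h. Cd68, another marker of the list, went the other way, from 886 to 1610 and from 739 to 2308, and Ptprc (the leukocyte antigen CD45) was below the array median on all 30 arrays, with means of 188 and 239, then 160 and 173. Summed cholangiocyte markers (5) were 9925 to 11037 and 11090 to 11967 at 24 h, and 12600 to 13594 and 11063 to 12023 at 48 h. That sum is nearly all Epcam (9952 and 11048, then 12409 and 11150), while Krt19 had means of 253 and 146, then 435 and 165. The summed endothelial markers (5) stayed between 829 and 1666, and the summed stellate cell and fibroblast markers (7) between 3008 and 4936, over all 6 groups. The part of these cell types in the results below was not tested, and in RNA of whole wells fewer cells of a type and less RNA per cell cannot be told apart.

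At 100 uM, called changes of these genes were small and mostly upward at both times. At 24 h, 20 of the 73 rose and 3 fell at an adjusted p under 0.05 (limma with Benjamini-Hochberg adjustment over all genes tested), where 19.8% of all genes tested rose and 15.8% fell. At 48 h, 18 rose and 1 fell, against 18.9% and 14.5% of all genes. The share of members that rose (27.4% and 24.7%) was thus above that of all genes by less than 10 percentage points, and the share that fell (4.11% and 1.37%) was below it. Large subunit genes were called higher 13 times and lower once at 24 h, and 11 times and 0 times at 48 h; limma called 9 large subunit genes with a value below 0 at 48 h neither way. Small subunit genes were called 7 times higher and 2 times lower at 24 h, and 7 times higher and 1 time lower at 48 h. The median log2 fold change was 0.09 for the large and 0.07 for the small subunit at 24 h, and 0.09 and 0.13 at 48 h, beside 0.04 and 0.05 over all genes tested. Members above 0 numbered 55 at 24 h and 59 at 48 h, and 51 were above 0 at both times. Of all 10222 genes tested, 5700 were above 0 at 24 h and 5806 at 48 h. Members that rose did so by 11.02% to 34.7% at 24 h and by 10.9% to 37.5% at 48 h, so none of the called genes reached a 1.5-fold change. These counts depend on how arrays are scaled. With each array centred on its own median, 9 rose and 3 fell at 24 h (12.3% and 4.11%), where 14.2% of all genes rose and 15.6% fell. At 48 h, 4 rose and 2 fell (5.48% and 2.74%), against 12.2% and 15.1% of all genes. With this scaling the share of members that rose was thus below that of all genes at both times. Members above 0 then numbered 47 at each time, where 5254 and 5105 of all 10222 genes were above 0. With quantile normalization the share that rose stayed above that of all genes. It gave 20 members that rose and 3 that fell at 24 h (27.4% and 4.11%), against 20.9% and 16.4% of all genes. At 48 h, 24 rose and 1 fell (32.9% and 1.37%), against 19.8% and 15.6%. Of the 23 members called at 24 h, 12 kept their call with centred arrays, and of the 19 called at 48 h, 5 did. Members that lost it had log2 fold changes of 0.15 to 0.26 at 24 h, which were 0.12 to 0.23 with centred arrays, and of 0.15 to 0.32 at 48 h, which were 0.10 to 0.27. Their SE was also larger with centred arrays, such as 0.079 for Mrps30 at 24 h against 0.053. Adjusted p-values called centred below are those with arrays centred on their medians, given where the call was lost.

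**Figure D1:**
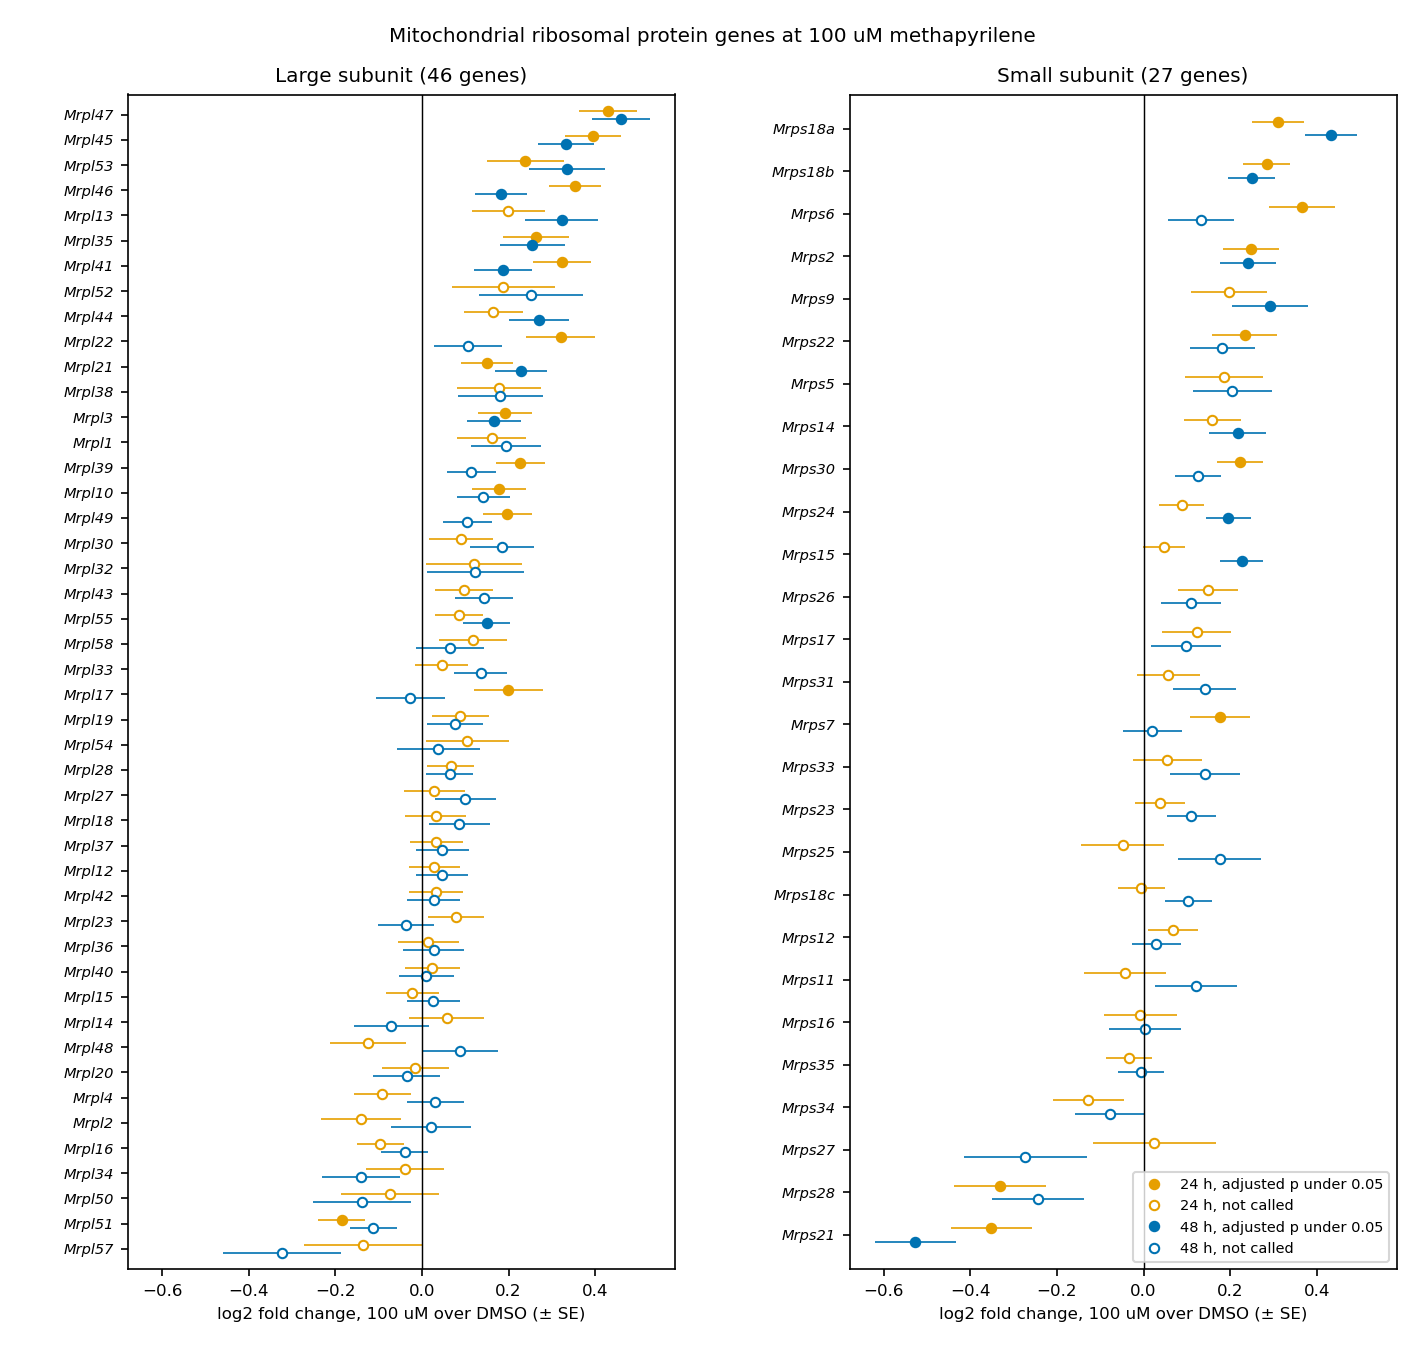
Log2 fold change of 100 uM over DMSO for each of the 73 genes (horizontal axis, bars are SE from the limma fit on 5 arrays a group), at 24 h (orange) and 48 h (blue), with filled points at an adjusted p under 0.05. Most points lie to the right of 0, and the lowest are Mrps21 in the small subunit and Mrpl57 in the large.

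Repeat measurement of these genes was close. The SE of a log2 fold change ran from 0.049 to 0.14 over the 73 genes with a median of 0.070, against a median of 0.11 over all genes tested. With arrays of 5 against 5, 14 members had all 100 uM arrays above all DMSO arrays at 24 h and 2 had all below (14.5% and 11.9% of all genes), and at 48 h 19 and 2 did (15.8% and 12.1%). The effect at 100 uM did not differ detectably between the times for any member: limma called 0 of 73 for the change from 24 h to 48 h, where it called 0.616% of all genes up and 1.04% down, and 2 members (2.74%) had an unadjusted p under 0.05, against 11.3% of all genes.

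Mrpl47 and Mrpl45, the members with the largest rise at 24 h, belong to the proteins around the exit of the tunnel. Of 7 measured, 5 rose at 24 h (Mrpl17, Mrpl22, Mrpl39, Mrpl45 and Mrpl47) and 3 at 48 h (Mrpl44, Mrpl45 and Mrpl47), with median log2 fold changes of 0.23 and 0.11. That is 71.4% and 42.9% of the list, beside 27.4% and 24.7% of all members and 19.8% and 18.9% of all genes tested. The list was chosen with earlier results of these data known, and no test sets it against the other members. Mrpl47, the counterpart of bacterial protein L29 beside the exit, read 3983, 4503, 3995, 4116 and 3968 signal units on DMSO replicates 1 to 5 at 24 h, and 5872, 6103, 5834, 4968 and 4986 at 100 uM. All 100 uM arrays were above all DMSO arrays, and replicates 1, 2 and 3 were the highest. The log2 fold change was 0.43 ± 0.067 (SE), adjusted p = 4.28e-06. At 48 h its DMSO arrays read 4036, 3647, 3951, 4423 and 3925, against 5936, 5620, 5617, 5193 and 5097 at 100 uM. The groups again did not overlap, with a log2 fold change of 0.46 ± 0.067 (SE) and adjusted p = 1.53e-06.

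Mrpl45, a protein that mitochondria added at the exit and that contacts the inner membrane, gave DMSO signals of 5647, 5247, 6160, 5688 and 5492 at 24 h and of 6766, 7667, 7534, 7653 and 7494 at 100 uM. The lowest 100 uM array, replicate 1, was still above the highest DMSO array, and the log2 fold change was 0.40 ± 0.065 (SE), adjusted p = 8.43e-06. The 48 h signals were 5411, 5774, 5904, 5433 and 5600 in DMSO and 6347, 7603, 7339, 6884 and 7282 at 100 uM. These did not overlap either (log2 fold change 0.33 ± 0.065 (SE), adjusted p = 0.000108). Mrpl17, Mrpl22 and Mrpl39, which also line or surround the tunnel, rose at 24 h by log2 fold changes of 0.20 ± 0.08 (SE), 0.32 ± 0.079 (SE) and 0.23 ± 0.056 (SE) (centred adjusted p of 0.251 for Mrpl17 and 0.0569 for Mrpl39). Their 48 h values of -0.03, 0.11 and 0.11 were not called. Mrpl44, which resembles ribonuclease III and sits near the exit, rose at 48 h (0.27 ± 0.069 (SE), centred adjusted p = 0.0903) after a value of 0.17 at 24 h that was not called.

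Single genes rose in other parts of the large subunit. Of all genes tested, 19.8% rose at 24 h and 18.9% at 48 h, and the counts in this paragraph were not tested against these shares. In the central protuberance, the knob at the top of the large subunit, 1 of 6 genes rose at each time, which is near them. It was Mrpl46 both times. Mrpl46 read 3435, 3745, 3714, 3905 and 4143 in DMSO at 24 h and 5209, 4644, 5060, 4766 and 4500 at 100 uM. Every 100 uM array exceeded every DMSO array (log2 fold change 0.35 ± 0.06 (SE), adjusted p = 1.65e-05). At 48 h its groups overlapped and the log2 fold change was 0.18 ± 0.06 (SE), adjusted p = 0.0182 (centred 0.248). In the stalk that recruits translation factors, Mrpl10 and Mrpl53 of 4 measured genes rose at 24 h and Mrpl53 alone at 48 h, by 0.24 ± 0.088 (SE) and 0.34 ± 0.088 (SE) for Mrpl53. With centred arrays both calls at 24 h were lost (adjusted p of 0.211 and 0.158). Mrpl41, added in mitochondria, rose by 0.32 ± 0.067 (SE) at 24 h and 0.19 ± 0.067 (SE) at 48 h (centred adjusted p = 0.311 at 48 h). Mrpl13 and Mrpl21, both with bacterial counterparts, rose at 48 h by 0.32 ± 0.084 (SE) and 0.23 ± 0.06 (SE) (centred adjusted p of 0.0713 and 0.0912).

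Symbols do not always name the subunit. Mrps18a and Mrps30 carry small subunit symbols, but their proteins sit in the large subunit of the mammalian particle. Mrps18a, 1 of 3 relatives of bacterial protein S18, read 7652, 8207, 7541, 8528 and 7277 in DMSO at 24 h and 9147, 9016, 9428, 9901 and 11175 at 100 uM. Its groups did not overlap (log2 fold change 0.31 ± 0.06 (SE), adjusted p = 9.95e-05). By 48 h the DMSO arrays read 7746, 7588, 7766, 8123 and 8625 and the 100 uM arrays 11114, 11006, 11239, 9851 and 10601. The gap was wider there, at 0.43 ± 0.06 (SE) with adjusted p = 5.75e-07, although the change between the times was not called (adjusted p = 0.636). Mrps30 rose at 24 h (0.22 ± 0.053 (SE), centred adjusted p = 0.0674) and had a value of 0.13 at 48 h. With both genes counted in the large subunit, 15 of 48 rose and 1 fell at 24 h, where 19.8% of all genes tested rose and 15.8% fell. At 48 h, 12 rose and 0 fell, against 18.9% and 14.5% of all genes.

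Within the small subunit proper, Mrps18b, another S18 relative, rose at both times. Its DMSO signals at 24 h were 10874, 11568, 12277, 10322 and 10758, and its 100 uM signals 13150, 14383, 13648, 13239 and 13432. No 100 uM array fell into the DMSO range, and the log2 fold change was 0.28 ± 0.053 (SE) with adjusted p = 6.47e-05. The later arrays read 10716, 10532, 10490, 10053 and 10458 in DMSO and 12180, 12854, 12188, 12252 and 12638 at 100 uM. Again the groups were apart (0.25 ± 0.053 (SE), adjusted p = 0.00036), but with centred arrays the value was 0.20 and the call was lost (adjusted p = 0.0665). The third S18 relative, Mrps18c, which takes the place of S18 itself, was at -0.01 and 0.10 and was not called. Among 4 proteins on the path of the messenger RNA, Mrps2 rose at both times (0.25 ± 0.065 (SE) and 0.24 ± 0.065 (SE)) and Mrps24 at 48 h (0.20 ± 0.052 (SE)). Of all genes tested, 19.8% rose at 24 h and 18.9% at 48 h. The 48 h calls of Mrps2 and Mrps24 were lost with centred arrays (adjusted p of 0.0659 and 0.174). Mrps15, the counterpart of bacterial S15, rose at 48 h (0.23 ± 0.049 (SE), centred adjusted p = 0.061). Mrps6, the counterpart of bacterial S6, rose at 24 h (0.37 ± 0.077 (SE), adjusted p = 0.000253) and stood at 0.13 at 48 h. It was also the one member that differed between the DMSO groups, as given further on.

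**Figure D2:**
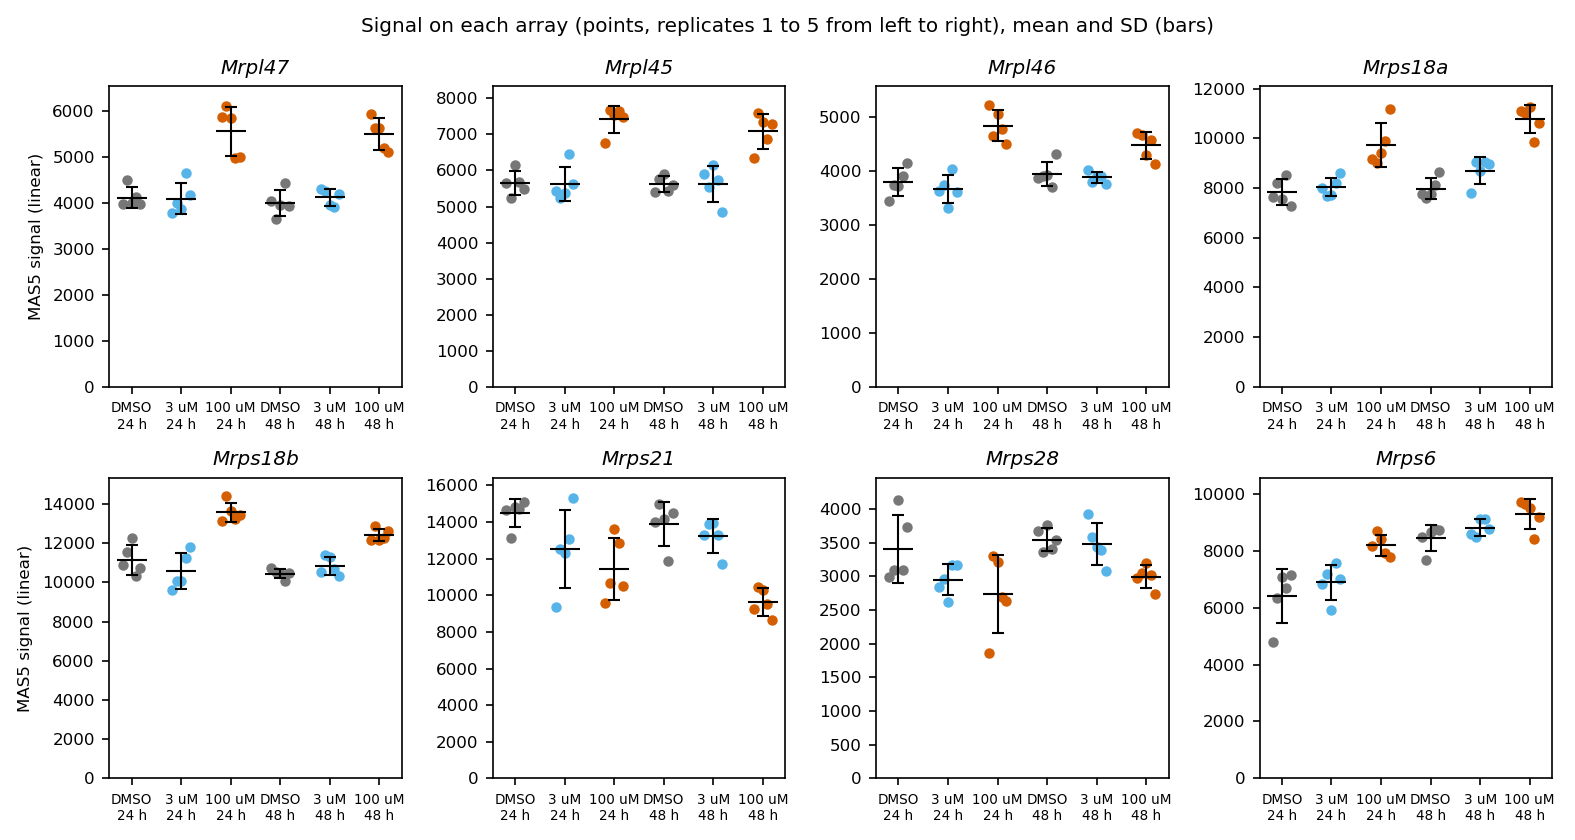
MAS5 signal (vertical axis, linear, starting at 0) of 8 genes on each of the 30 arrays in the 6 groups, with points for replicates 1 to 5 and bars for the mean and SD. Mrpl47, Mrpl45, Mrps18a and Mrps18b are higher at 100 uM than in DMSO at both times without overlap, and Mrps21 is lower at 48 h without overlap.

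Mrps21 was the one member that fell at both times. This small protein is the counterpart of bacterial S21. At 24 h it read 14650, 13137, 14842, 14716 and 15102 in DMSO and 9599, 10684, 13606, 12836 and 10489 at 100 uM. Replicate 3 of the 100 uM group lay inside the DMSO range and the other 4 lay below it (log2 fold change -0.35 ± 0.094 (SE), adjusted p = 0.00333). At 48 h the DMSO arrays gave 14014, 14981, 14154, 11860 and 14505 and the 100 uM arrays 9249, 10453, 10309, 9546 and 8650. There all 100 uM arrays were below all DMSO arrays, and the gene fell by 30.6% (log2 fold change -0.53 ± 0.094 (SE), adjusted p = 3.39e-05). The direction was thus opposite to that of the 11 members that rose at both times, which were Mrpl3, Mrpl21, Mrpl35, Mrpl41, Mrpl45, Mrpl46, Mrpl47, Mrpl53, Mrps2, Mrps18a and Mrps18b. With centred arrays 3 of these were called higher at both times, Mrpl45, Mrpl47 and Mrps18a, and Mrps21 stayed lower at both. A further 43 members were called at neither time, and no member was called in opposite directions at the 2 times. How many of all genes tested were called higher at both times, or at neither, was not counted. The 11 and the 43 therefore have no background to be set against. At a single time 19.8% (24 h) and 18.9% (48 h) of all genes tested rose.

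Mrps28, a small subunit protein related to bacterial S1, read 2992, 3088, 4142, 3090 and 3728 in DMSO at 24 h and 1860, 3306, 3210, 2690 and 2634 at 100 uM. The groups overlapped, and replicate 1 at 100 uM was far below the rest. The gene was called lower (log2 fold change -0.33 ± 0.11 (SE), adjusted p = 0.0137), but without that array the value was -0.20 and the adjusted p 0.0895, and without DMSO replicate 3 it was -0.26 and also not called. At 48 h all 5 arrays at 100 uM were below all DMSO arrays, with a log2 fold change of -0.24 ± 0.11 (SE) that missed the threshold (adjusted p = 0.0757).

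For Mrpl51, a large subunit protein added in mitochondria, the answer depended on the probe set. The brightest of its 4 probe sets read 6137, 5920, 6394, 6723 and 6240 in DMSO at 24 h and 5658, 5850, 5174, 5240 and 5706 at 100 uM. All 100 uM arrays were lower, with a log2 fold change of -0.19 ± 0.054 (SE) and adjusted p = 0.00703. Another probe set of the same gene read 3006, 2783, 2955, 3306 and 3378 in DMSO and 3647, 3692, 3595, 3310 and 3431 at 100 uM, and it was called higher (0.20 ± 0.073 SE, adjusted p = 0.0336 over all probe sets). At 48 h this second probe set rose by 0.40 ± 0.073 (SE) on the log2 scale with no overlap, while the brightest was at -0.11 ± 0.054 (SE) and was not called. The mean of the probe sets gave -0.02 with an adjusted p of 0.788 at 24 h. Mrpl51 was the single case of opposite calls among the 14 members with over 1 probe set past the brightness filter. Of the members with several probe sets that were called from the brightest (4 at 24 h and 3 at 48 h), none was called the same way by another. Of all 73 members, 21 have pseudogenes in the RefSeq gene table, 36 in all, which the probe sets may share.

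The short stretches before the start sites of these genes were read from RefSeq (build GRCr8), because members that rise together may be set beside the letters known to bind shared regulators. Windows of 300 bases (250 before the start and 50 after) were found for 59 of the 73 genes, 61 windows in all. Motifs were searched on both strands. They were CCGGAA, the core bound by ETS factors such as GABPA (also called NRF-2), AAGATGGCG, bound by YY1, and GCGCATGC, bound by NRF1. All 3 factors are known regulators of nuclear genes for mitochondrial proteins. CCGGAA lay in 32 of the 61 windows (52.5%), against 14.95% of all 33469 windows and 27.8% of the 9543 windows of genes tested here. AAGATGGCG lay in 8 (13.1%), against 1.73% and 3.68%. GCGCATGC lay in 5 (8.20%), against 2.47% and 4.97%. In windows of oxidative phosphorylation genes the shares were 41.8%, 14.9% and 10.4%, and in those of cytosolic ribosomal proteins 39.5%, 7.89% and 2.63%. The letters G and C made up 56% of the median member window, 51.7% of all windows and 60.7% of those of tested genes.

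The stretches from 140 bases before to 15 bases after the start are shown for 5 genes described above, 4 that rose and the one that fell at both times. Matches are in capitals. The run gcgcatgcgc holds the NRF1 letters on both strands, so the letters of its 2 matches overlap. Mrpl47 (chr2:117447347-117447501, minus strand) holds none of the motifs in its window. Mrpl44 (chr9:88554910-88555064, plus strand) holds the NRF1 run and the reverse of the ETS core. Mrps18a (chr9:22367366-22367520, minus strand) holds the ETS core and, beginning at the start site itself, the YY1 letters. Mrps18b (chr20:2842866-2843020, plus strand) holds the NRF1 run and the reverse of the ETS core next to the start. Mrps21 (chr2:186103337-186103491, minus strand) has 2 windows, of which the upstream one holds the reverse of the ETS core just after the start.
Mrpl47: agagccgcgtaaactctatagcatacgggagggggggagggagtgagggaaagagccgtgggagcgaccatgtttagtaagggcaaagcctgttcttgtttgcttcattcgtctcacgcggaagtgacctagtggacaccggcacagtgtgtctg
Mrpl44: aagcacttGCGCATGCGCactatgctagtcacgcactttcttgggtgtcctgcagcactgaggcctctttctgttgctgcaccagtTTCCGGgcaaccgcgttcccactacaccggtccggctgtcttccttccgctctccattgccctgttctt
Mrps18a: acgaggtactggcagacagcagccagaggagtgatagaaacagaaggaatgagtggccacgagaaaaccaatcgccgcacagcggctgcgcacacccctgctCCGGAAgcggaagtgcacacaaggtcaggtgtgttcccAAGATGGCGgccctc
Mrps18b: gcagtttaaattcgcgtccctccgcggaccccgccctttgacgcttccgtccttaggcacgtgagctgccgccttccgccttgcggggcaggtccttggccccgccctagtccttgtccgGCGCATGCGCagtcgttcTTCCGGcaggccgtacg
Mrps21: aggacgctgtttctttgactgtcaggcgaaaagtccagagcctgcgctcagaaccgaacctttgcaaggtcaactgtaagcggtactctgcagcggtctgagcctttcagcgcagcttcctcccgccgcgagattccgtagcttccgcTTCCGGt

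A match describes letters and not a bound site, and a window without a match says nothing of the factor. Among the 22 windows of members called higher at 100 uM at either time, 9 held CCGGAA, 3 AAGATGGCG and 4 GCGCATGC. Among the 39 other member windows the counts were 23, 5 and 1. No test was run on these counts. Of the members named above that rose, Mrpl47, Mrpl45, Mrpl41, Mrps2, Mrps6 and Mrps15 had none of the 3 motifs. A motif was found for Mrpl3, Mrpl10, Mrpl17, Mrpl22, Mrpl39, Mrpl44, Mrpl46, Mrpl53, Mrps18a, Mrps18b and Mrps30. Mrpl13, Mrpl21, Mrpl35 and Mrps24 had no window. Over all members, 24 of the 61 windows had none of the motifs.

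Mrpl46 and Mrps11 lie head to head, and their start sites are separated by 233 bases that serve as the upstream stretch of both genes. These bases hold none of the 3 motifs. The 300-base window of Mrpl46 holds 1 match to the YY1 letters, in its 50 bases after the start and so outside the stretch, and the window of Mrps11 holds none. The stretch is shown because a single short run of bases lies upstream of both genes. The stretch is chr1:142117031-142117263 (GRCr8, plus strand), with Mrpl46 transcribed to the left and Mrps11 to the right.
Mrpl46 to Mrps11: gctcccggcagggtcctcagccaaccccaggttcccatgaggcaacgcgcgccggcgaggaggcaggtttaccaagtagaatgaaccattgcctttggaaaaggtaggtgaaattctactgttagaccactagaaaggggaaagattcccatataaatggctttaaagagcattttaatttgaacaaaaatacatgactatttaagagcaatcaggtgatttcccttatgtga

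Mrpl46 rose at 24 h as given above. Mrps11, a small subunit protein with a bacterial counterpart, read 5300, 4512, 6605, 6853 and 5859 in DMSO and 5471, 5367, 6884, 5144 and 5261 at 100 uM. Its groups overlapped and its log2 fold change was -0.04 ± 0.095 (SE), with a 95% interval from -0.24 to 0.15 that lies below the 0.23 to 0.48 of Mrpl46. At 48 h the values were 0.12 ± 0.095 (SE) for Mrps11 and 0.18 ± 0.06 (SE) for Mrpl46. The difference between both genes was not tested.

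Of the 3 regulators whose letters were searched, Gabpa and Yy1 were measured among the genes tested and Nrf1 was not. Gabpa, which encodes the DNA-binding subunit of GABP, read 1813, 1991, 1724, 1621 and 1681 in DMSO at 24 h and 1334, 907, 1070, 1119 and 1276 at 100 uM. No array overlapped, and the log2 fold change was -0.64 ± 0.12 (SE), adjusted p = 5.64e-05. At 48 h it was -0.31 ± 0.12 (SE), adjusted p = 0.0406. Yy1 read 12224, 11727, 12224, 11349 and 11169 and 14098, 13920, 13150, 12847 and 13130 at 24 h, without overlap. It rose by 0.19 ± 0.047 (SE) at 24 h and 0.16 ± 0.047 (SE) at 48 h, calls that were lost with centred arrays (adjusted p of 0.0962 and 0.302). Of 9 regulators measured, 2 rose and 1 fell at 24 h, where 19.8% of all genes tested rose and 15.8% fell. At 48 h, 3 rose and 1 fell, against 18.9% and 14.5% of all genes. The difference from all genes was not tested. Pprc1, a coactivator of the PGC-1 family, also rose (0.48 at 24 h and 0.49 at 48 h), as did Esrra, a nuclear receptor that works with that family, at 48 h (0.48 ± 0.14 SE).

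At 3 uM the members gave almost no calls. At 24 h 0 rose and 1 fell, where limma called 2.99% of all genes higher and 1.22% lower, and 15 members (20.5%) had an unadjusted p under 0.05, against 22.1% of all genes. Of these 15, 14 were below 0, where 917 of 2256 were over all genes. The gene that fell was Mrps18c, with DMSO signals of 8657, 8579, 8534, 8956 and 8782 and signals at 3 uM of 7695, 7007, 6407, 7372 and 7937. The groups did not overlap (log2 fold change -0.26 ± 0.054 (SE), adjusted p = 0.00808). The call was lost without replicate 3 at 3 uM, with arrays centred on their medians (adjusted p = 0.0701), and with the beta-actin ratio as a covariate (adjusted p = 0.554). With that covariate limma called 0 of all 10222 genes higher and 1 lower. Over the 73 genes the median log2 fold change was -0.07, against 0.01 over all genes tested. Of the 73, 18 were above 0, where 5403 of all 10222 genes were. The median of the members joined 2 kinds of array. In replicates 1, 2 and 3, which had the high beta-actin ratios, the median of the members lay at -0.18, -0.15 and -0.20 relative to the DMSO mean. In replicates 4 and 5, with ratios of 2.91 and 3.28, it lay at 0.10 and 0.05. The large subunit alone gave -0.17, -0.15, -0.20, 0.11 and 0.06, and the small subunit -0.21, -0.15, -0.19, 0.06 and 0.01. Medians of the cytosolic ribosomal proteins were -0.23, -0.30 and -0.28 on the first 3 of these arrays and 0.02 and 0.20 on the others. With replicates 4 and 5 alone in the group, the median of the members was 0.08 and 0 were called. Of all 10222 genes, that fit called 0 higher and 4 lower, so few calls were made for any genes. Counts of members that fell swung with single arrays, to 0 without replicate 3, 11 without replicate 4, 13 without replicate 5 and 2 without DMSO replicate 4. How many of all genes tested fell in these fits is not given here, so these counts have no background to be set against. The part of RNA quality in these values was not tested beyond the covariate fit.

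**Figure D3:**
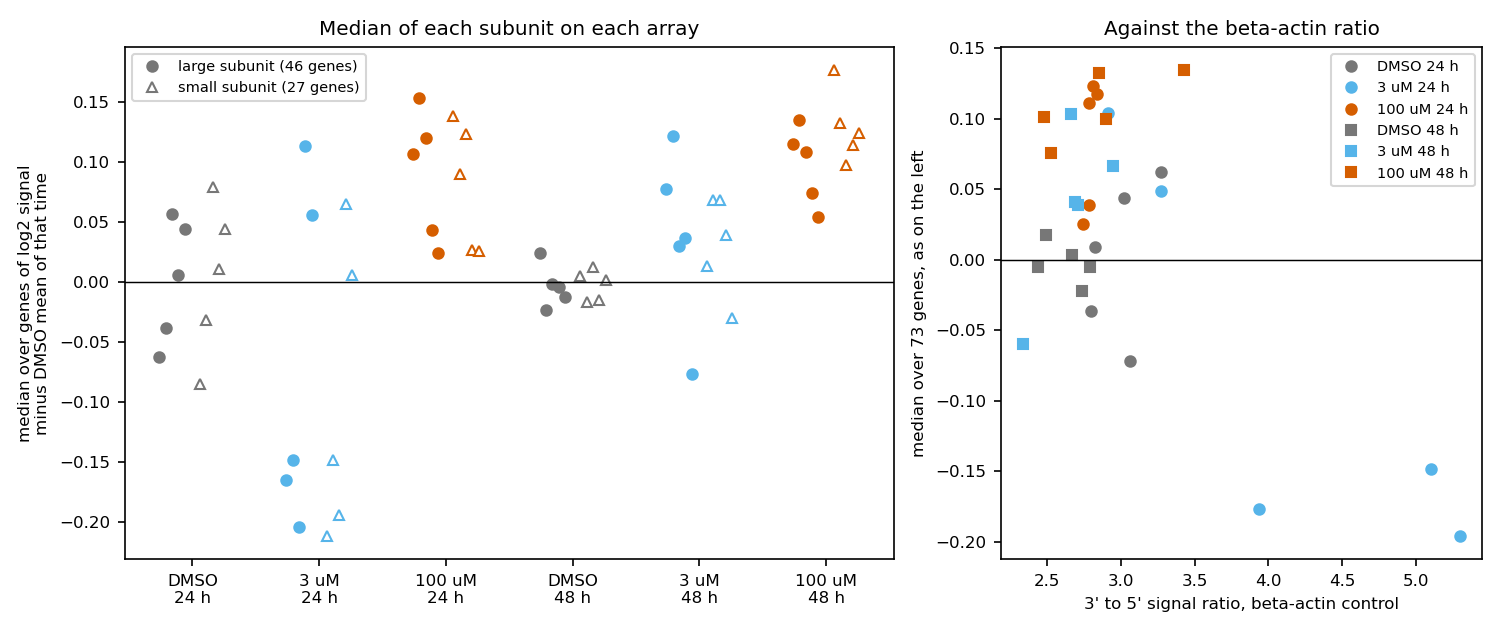
Left, the median over the genes of each subunit of log2 signal minus the DMSO mean of the same time, for each array (circles large, triangles small subunit). Right, the median over all 73 genes against the 3' to 5' signal ratio of the beta-actin control; 3 arrays given 3 uM for 24 h lie at ratios of 3.93 to 5.30 and medians of -0.20 to -0.15, apart from all others.

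At 48 h, 3 uM gave 0 calls among the members by limma, with 0.0196% of all genes called in each direction, and 1 member (1.37%) had an unadjusted p under 0.05, against 5.11% of all genes. The median log2 fold change was 0.04 and 55 members were above 0, where 5307 of all 10222 genes were. Medians per array at 100 uM were of one sign, from 0.03 to 0.12 at 24 h and from 0.08 to 0.13 at 48 h. Medians over all genes tested were above 0 on the same arrays too, from 0.04 to 0.07 at 24 h and from 0.05 to 0.07 at 48 h. On replicates 4 and 5 at 24 h the median of the members (0.04 and 0.03) lay below that of all genes (0.07 and 0.05), and on the other 8 arrays at 100 uM it lay above. The DMSO arrays spread from -0.07 to 0.06 at 24 h and from -0.02 to 0.02 at 48 h, so the array medians of 100 uM and DMSO overlapped at 24 h and were apart at 48 h.

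Time in culture changed 1 member. Between the DMSO groups at 24 h and 48 h, 1 of 73 rose and 0 fell, where limma called 2.57% and 1.91% of all genes, and 7 members (9.59%) had an unadjusted p under 0.05, against 15.7% of all genes. Mrps6 read 4797, 6348, 7080, 6702 and 7145 in DMSO at 24 h and 8494, 7663, 8674, 8766 and 8716 at 48 h. The lowest array at 48 h exceeded the highest at 24 h, and the gene rose by 0.41 ± 0.077 (SE) on the log2 scale (adjusted p = 0.000558). Its 100 uM arrays at 24 h, 8173, 8681, 8410, 7913 and 7788, fell in the range that the DMSO arrays reached at 48 h. The median member stood 0.05 lower at 48 h (log2), and 57 of 73 were below 0 and 16 above. Of all 10222 genes tested, 5165 were above 0.

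Genes that share the pathway were read from lists chosen with earlier results known. Of 20 measured genes for assembly of the mitochondrial ribosome and modification of its RNA, 6 rose and 1 fell at 24 h, and 5 rose and 1 fell at 48 h (background as for the members, 19.8% and 15.8%, then 18.9% and 14.5%). Fastkd2, needed for the large ribosomal RNA, rose by 0.46 ± 0.13 (SE) and 0.44 ± 0.13, and Mrm3, which methylates that RNA, by 0.41 ± 0.10 and 0.34 ± 0.10. Gtpbp10, a GTPase of large subunit assembly, and Ngrn also rose at both times, the former with a centred adjusted p of 0.179 at 48 h. Mettl15, which methylates the small ribosomal RNA, fell at both (-0.36 ± 0.095 and -0.38 ± 0.095). Among 13 translation factors, 2 rose and 2 fell at 24 h, and 2 rose and 1 fell at 48 h. Tufm, the elongation factor that brings transfer RNAs to the ribosome, fell by 0.20 on the log2 scale at both times. Mrrf, which recycles the ribosome after a chain is finished, rose by 0.18 (centred adjusted p = 0.161) and 0.35, and Mtrfr, which rescues stalled ribosomes, rose by 0.83 ± 0.21 (SE) at 48 h. Of 12 mitochondrial aminoacyl-tRNA synthetases, 1 rose and 1 fell at 24 h and 3 fell at 48 h, among them Cars2 (-0.33 ± 0.11 and -0.59 ± 0.11). Of 5 further ribosomal proteins without an Mrp symbol, Gadd45gip1 fell at 24 h (-0.18 ± 0.054), and at 48 h Chchd1 rose (0.20 ± 0.069, centred adjusted p = 0.270) and Ptcd3 fell (-0.33 ± 0.11).

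Nuclear-encoded subunits of oxidative phosphorylation join the products of this ribosome in the respiratory complexes. Of 74 measured, 2 rose and 9 fell at 24 h, and 2 rose and 16 fell at 48 h, with median log2 fold changes of -0.03 and -0.08. The share that fell was 12.2% at 24 h, below the 15.8% of all genes tested, and 21.6% at 48 h, above the 14.5%; the share that rose was 2.70% at both times, below the 19.8% and 18.9%. Of 45 cytosolic ribosomal proteins, 7 rose and 0 fell at 24 h and 9 rose and 0 fell at 48 h, with medians of 0.11 and 0.08. Their share that rose was 15.6% and 20%, near that of all genes with the arrays scaled as deposited. With arrays centred on their medians the counts were 1 and 7, then 1 and 11, for oxidative phosphorylation, and 1 and 0, then 3 and 0, for cytosolic ribosomal proteins, where 14.2% of all genes rose and 15.6% fell at 24 h and 12.2% and 15.1% at 48 h. With quantile normalization, 20 cytosolic ribosomal proteins rose and 0 fell at 24 h (44.4% rose), and 33 rose and 1 fell at 48 h (73.3%). Oxidative phosphorylation subunits then had 2 and 14, then 6 and 23. Of all genes, 20.9% rose and 16.4% fell at 24 h, and 19.8% and 15.6% at 48 h. The cytosolic share that rose thus lay above that of all genes with this scaling and below it with centred arrays. The difference of the members from either list was not tested.

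**Figure D4:**
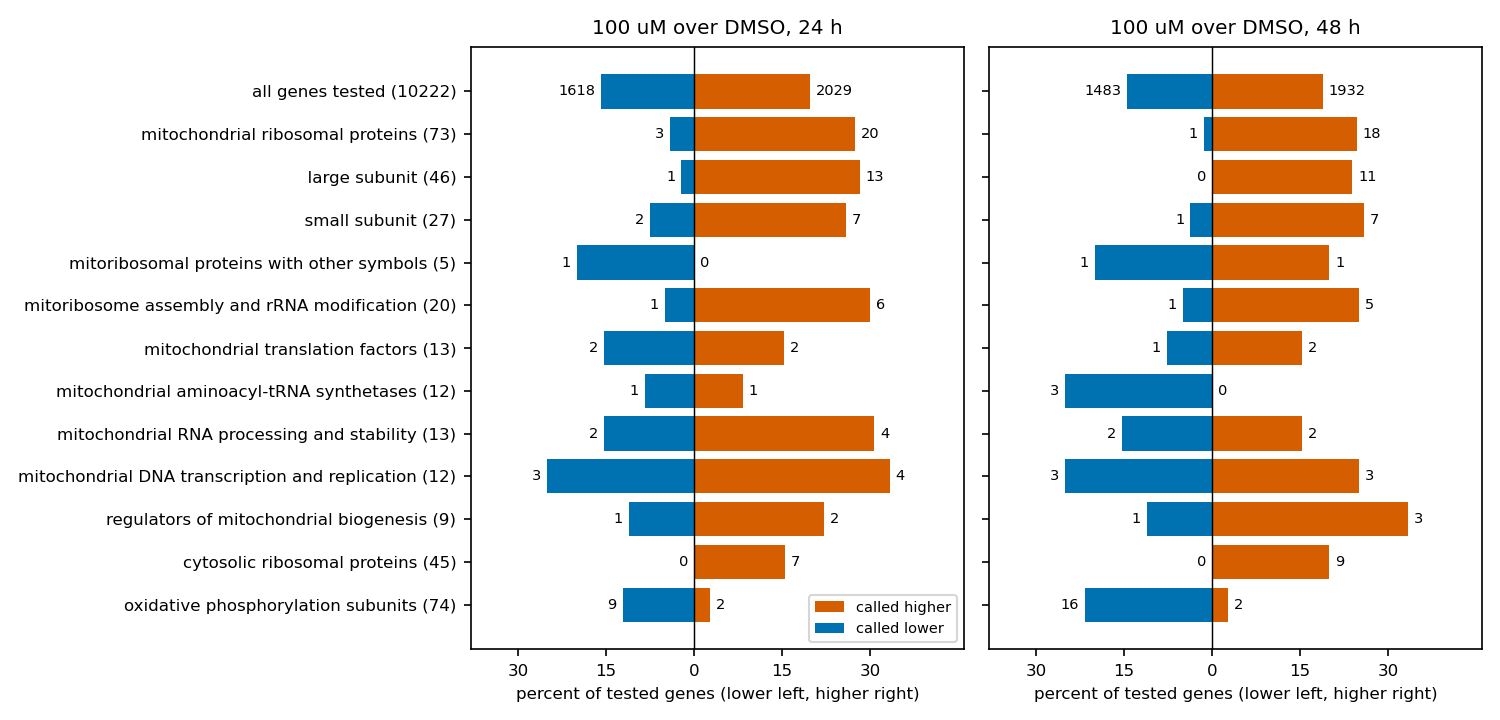
Percent of the tested genes of each list called higher (right, orange) or lower (left, blue) at 100 uM against DMSO at 24 h and 48 h, with list sizes in brackets and the number of called genes at the bars. The mitochondrial ribosomal proteins have 20 and 3 calls at 24 h and 18 and 1 at 48 h, and the oxidative phosphorylation subunits 2 and 9, then 2 and 16.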

How the data were processed

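RNA from 30 wells was hybridised to rat arrays. Per the submitters' processing notes the deposited intensity values come from MAS5; they are linear probe set signals with a common trimmed mean, and version and probe build are not given in the sources used here. Of 31099 probe sets, 20826 have 1 gene symbol, 436 several, 9780 none and 57 are controls. Signals were log2 transformed. Probe sets had to exceed the array median on at least 5 arrays, and the brightest stood for each gene, which left 10222 genes. Group means were estimated over the 30 arrays together with limma 3.58.1 in R 4.3.3 (eBayes with trend, 24 residual degrees of freedom, two-sided), with Benjamini-Hochberg adjustment over all genes in each comparison. On simulated data for 100 uM at 24 h, 200 of 10222 genes were changed, and 22% of 1.2-fold and 75% of 1.5-fold changes were recovered. In the real comparison 19.8% of genes rose and 15.8% fell. The median SE was 0.070 for the members and 0.11 for all genes. The shares recovered therefore do not measure how often changes of the members are missed. Named were the 10 called members with the lowest adjusted p each way at 100 uM (4 in other comparisons), plus list members called. Members and lists were chosen with earlier results of these data known. The number of arrays limits precision.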

Additional observations from a re-analysis of the deposited data

Results flagged for a closer look

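In 120 groups of 5 arrays, 8 had an array whose gap to the nearest other array was over 0.71 of the range of its group; chance gives about 1 in 20 such groups. Among the genes that rose at 100 uM, Mrpl22 read 11843 on replicate 5 at 100 uM and 24 h against 13904 to 14683 on the others. Mrpl45 read 6766 on replicate 1 of the same group against 7494 to 7667. Mrpl47 read 4503 on DMSO replicate 2 at 24 h against 3968 to 4116. Mrpl53 read 14259 on replicate 2 at 100 uM and 48 h against 13149 to 13331. Mrps6 read 7663 on DMSO replicate 2 at 48 h against 8494 to 8766. Mrps24 read 9165 on replicate 2 at 3 uM and 48 h against 8126 to 8352. Mrps21, which fell, read 13137 on DMSO replicate 2 at 24 h against 14650 to 15102, and 11691 on replicate 5 at 3 uM and 48 h against 13302 to 13940.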

How the results depend on the processing

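At 100 uM and 24 h the 20 members that rose became 9 with arrays centred on their medians, 13 at an adjusted p under 0.01 and 9 when a 1.2-fold change was also asked. At 48 h the 18 became 4 with centred arrays, 28 with the compared groups fitted alone and 7 with the 1.2-fold change. With centred arrays 14.2% of all genes rose at 24 h, and at 48 h 12.2% rose and 15.1% fell. In the main fit 19.8% rose at 24 h, and at 48 h 18.9% rose and 14.5% fell. A count in this paragraph without a value for all genes has no background here, and may follow the calls over all genes. The 1 that fell at 48 h became 2 with centred arrays and 3 with the compared groups alone or with 3 uM at 24 h cut to replicates 4 and 5. It ranged from 1 to 3 with 1 array left out in turn, at 2 without replicate 1 of 3 uM at 24 h, of 100 uM at 24 h, of DMSO at 48 h or of 100 uM at 48 h, or without replicate 3 of the last, and at 3 without DMSO replicate 5 at 48 h. The 1 that fell at 3 uM and 24 h became 3 with quantile normalization and 0 with centred arrays, the mean of all probe sets, the compared groups alone, the beta-actin covariate, replicates 4 and 5 alone or the 1.2-fold change, and ranged from 0 to 13 with arrays left out in turn. Of all 10222 genes, 125 fell there in the main fit and 207 with quantile normalization. With centred arrays 23 did, with the beta-actin covariate 1, and with replicates 4 and 5 alone 4. Between the DMSO groups, 1 fell with the beta-actin covariate. The cause of these shifts was not tested. Consecutive array numbers make 5 runs of 6, each with every group once; with the runs as a replicate block, 18 rose and 3 fell at 24 h and 18 rose and 1 fell at 48 h, and the block changed no count by over 1.5 times. No filter, the other filter, a pseudocount of 16 and a fit without a variance trend left all 12 counts within 1.5 times. Of the members named at 100 uM, Mrps30 and Mrpl39 (24 h) and Mrps18b, Mrps15, Mrpl44, Mrpl21, Mrpl13 and Mrps24 (48 h) lost their call with centred arrays, with log2 fold changes of 0.15 to 0.27 there against 0.20 to 0.32. Their SE was larger there too, such as 0.082 for Mrps18b at 48 h against 0.053. How often a change near 1.2-fold is missed for these members was not tested.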

Other observations

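At 100 uM, 19.8% of all genes tested rose and 15.8% fell at 24 h, and 18.9% and 14.5% did at 48 h. Of 12 genes for mitochondrial DNA transcription and replication, 4 rose and 3 fell at 24 h and 3 rose and 3 fell at 48 h (33.3% and 25%, then 25% and 25%). Polg2, the accessory subunit of the mitochondrial DNA polymerase, fell by 1.16 ± 0.093 (SE) on the log2 scale at 24 h (limma adjusted p = 6.72e-12) and by 0.50 ± 0.093 at 48 h. Tfam, which packages mitochondrial DNA and starts its transcription, rose by 0.29 ± 0.068 and 0.27 ± 0.068, and Twnk, the replicative helicase, by 0.48 ± 0.11 and 0.44 ± 0.11. Of 13 genes for mitochondrial RNA processing and stability, 4 rose and 2 fell at 24 h and 2 rose and 2 fell at 48 h (30.8% and 15.4%, then 15.4% and 15.4%). Slirp, which stabilises mitochondrial messenger RNA, rose by 0.20 ± 0.060 (adjusted p = 0.0921 with centred arrays) and 0.31 ± 0.060, and Trmt10c, a subunit of mitochondrial ribonuclease P, by 0.43 ± 0.11 and 0.33 ± 0.11. Hsd17b10, another subunit of that enzyme, fell by 0.23 ± 0.079 and 0.33 ± 0.079.

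The other probe sets of Mrpl57 and Mrpl50 were called at 48 h where the brightest was not. For Mrpl57 the other probe set stood at 0.28 ± 0.088 (SE, adjusted p = 0.0152) and the brightest at -0.32 ± 0.14. For Mrpl50 both were below 0, at -0.19 ± 0.070 and -0.14 ± 0.11.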
